A study of Nicotiana tabacum with 6 samples.

Results

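The genes described here encode the phytochromes of tobacco, the photoreceptors for red and far-red light. They are 6 gene identifiers chosen by name: 2 described as phytochrome A1 (gene_22791 and gene_22797), 2 as phytochrome B (gene_78577 and gene_78589), 1 as phytochrome C (gene_32028) and 1 as phytochrome E (gene_25647). The deposited tables hold 31766 identifiers, of which 14 are described as a phytochrome apoprotein (5 PHYA, 6 PHYB, 2 PHYC and 1 PHYE). The other 8 are given beside the 6. The tables pair an identifier with a protein description and not with a position in the genome, so copies and pieces of 1 locus cannot be separated here. No nucleotide or protein sequence was at hand for these identifiers, and none is shown.

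A phytochrome is a protein (the apoprotein) that carries a linear tetrapyrrole chromophore and switches between a form that absorbs red light and a form that absorbs far-red light. The far-red-absorbing form moves into the nucleus, where it leads to the breakdown of phytochrome-interacting factors (PIFs) and holds back the COP1/SPA ubiquitin ligase, so that HY5 and other factors that drive greening accumulate. In Arabidopsis, phytochrome A builds up in darkness, is degraded in light and reads far-red light, phytochrome B is light stable and governs red light responses, phytochrome C works largely as a partner of phytochrome B, and phytochrome E adds to shade and germination responses. Tobacco joins the genomes of relatives of Nicotiana sylvestris and Nicotiana tomentosiformis, and a phytochrome can therefore have a copy from each.

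The study asked how sunflower heat stress factors A9 and A4a change transcripts in tobacco var. Xanthi. A9 is a transcriptional activator of maturing seeds, and A4a is a second heat stress factor of seeds that can act with it. RNA from 6 pools was sequenced, and each pool was an equal mixture of 4 RNA samples from pairs of transgenic and sibling non-transgenic (NT) lines. DS10:A9 and DS10:A4a seeds carry A9 or A4a behind the seed-specific DS10 promoter, and each was set against its own library of NT seeds, all at 1 day of imbibition, which the methods describe as taking place in darkness. The 35S:A9 seedlings carry A9 behind the constitutive 35S promoter, and they and the NT seedlings were 3 weeks old and grown with a daily light period. Each transgenic line had a single integration, at a site of its own. Tobacco seeds also make an A9 of their own, in NT and transgenic lines alike.

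Each condition was 1 library, except NT seeds, with 1 library for each of the 2 seed comparisons. These 2 NT seed libraries, from siblings of different transgenic lines, were not used as replicates. No replicate error was thus estimated, and no p-value is given. Levels are in FPKM (fragments per kilobase of transcript, scaled to the mapped fragments of the library). The depths recovered from the smallest steps of the FPKM values ranged from 11200000 to 16300000 fragments, at which a gene of 1 kb and 1 FPKM corresponds to 10.5 to 15.3 fragments. Each is the lowest depth at which the low values came out as whole fragments, and a depth that is a multiple of it would narrow the intervals below. The recovered depths were not checked against the read totals and mapping ratios that the study gives. Every log2 fold carries a 95% exact binomial interval that covers counting error only, not differences between plants, lines or library preparations. The 2 NT seed libraries could lie apart or close for genes listed in both seed comparisons. In these libraries the FAR1-related gene_35716, described further below, was at 4.33 and 9.42 FPKM, and HY5 gene_78854 at 5.80 and 5.55 FPKM. The tables hold only genes past a fold threshold. The A9up table lists genes with a log2 fold of about 0.6 or more in both DS10:A9 seeds and 35S:A9 seedlings, and the DS10:A4a tables list genes at 0.6 or more (A4a higher) and at -0.5 or less (A4a lower). The direction within a table is thus set by the listing, and the folds of listed genes lean away from 0. Of the 6 genes, 4 were in the A9up table, 1 of these (gene_32028) was also in the A4a higher table, and 2 were in the A4a lower table. A gene in neither A4a table has no value in that comparison here. As a check of the tissue labels, all 11 A9up genes described as chlorophyll a/b binding proteins or RuBisCO small subunits were higher in NT seedlings than in NT seeds (summed 2225 against 0.96 FPKM). The seed list could not serve as a check, since it matched 1 A9up gene, at 0 FPKM in NT seeds and 0.69 FPKM in NT seedlings.

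**Figure D1:**
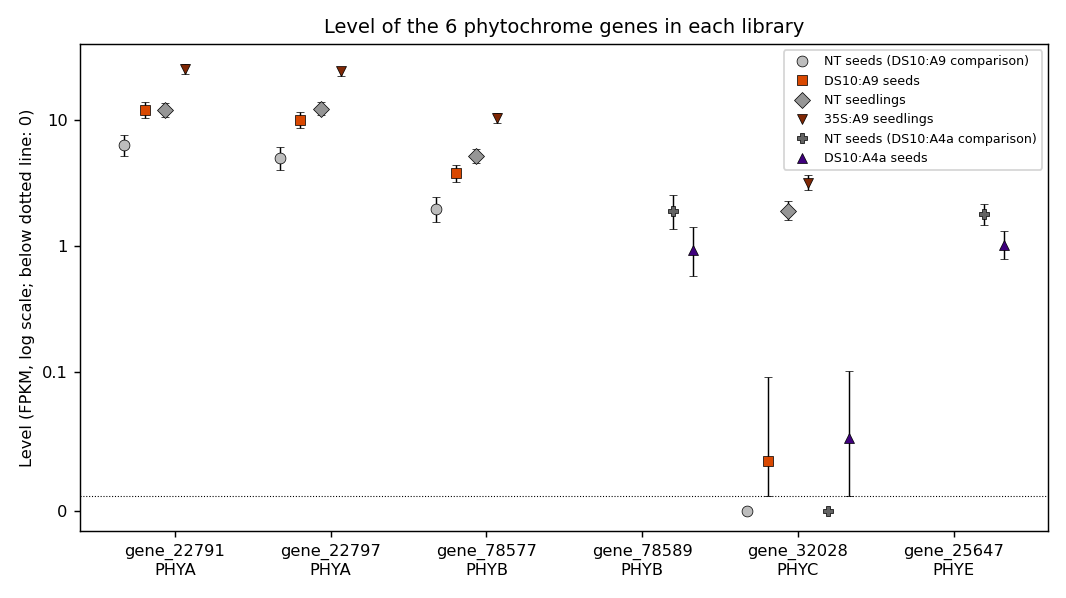
Level of the 6 phytochrome genes in FPKM (log scale, with values written as 0.01, read as 0, drawn below the dotted line) in each library that lists them, with 95% Poisson intervals of the fragments, cut at the dotted line. Both PHYA genes lie highest in every library that lists them, and PHYC (gene_32028) lies at 0.03 FPKM or less in seeds against 1.91 and 3.19 FPKM in seedlings.

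Per length, phytochrome A had the most abundant transcripts of the family in the A9up table. In seeds gene_22791 was at 6.31 FPKM in the NT and 12.03 FPKM in the DS10:A9 library, and in seedlings at 12.09 FPKM in the NT and 25.51 FPKM in the 35S:A9 library. For gene_22797 the values, in the same order, were 4.96 and 10.04 FPKM in seeds and 12.29 and 24.35 FPKM in seedlings. Both genes were lowest in NT seeds and highest in 35S:A9 seedlings, with DS10:A9 seeds and NT seedlings in between. DS10:A9 over NT seeds, the log2 fold was 0.93 for gene_22791 (95% counting interval 0.59 to 1.29, from 104 and 204 fragments) and 1.02 for gene_22797 (0.65 to 1.39, from 93 and 193 fragments). In 35S:A9 over NT seedlings it was 1.08 for gene_22791 (0.85 to 1.31) and 0.99 for gene_22797 (0.77 to 1.20). The listing fixed the direction of these folds, and the seed and the seedling fold of each gene differed by no more than counting error: seeds minus seedlings was -0.15 on the log2 scale for gene_22791 (interval -0.55 to 0.26) and 0.03 for gene_22797 (-0.38 to 0.45).

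A further 3 identifiers of the A9up table were described as phytochrome A1. The most deeply covered, gene_2752, with a transcript of 3524 bases, rested on 231 to 983 fragments a library and went from 5.95 to 11.24 FPKM in seeds and from 11.04 to 21.37 FPKM in seedlings. Its log2 folds were 0.92 (0.69 to 1.15) in seeds and 0.95 (0.80 to 1.11) in seedlings, close to those of gene_22791. The shorter and lower gene_2751 went from 1.27 to 4.26 FPKM in seeds and from 4.50 to 7.25 FPKM in seedlings. It was the 1 gene of the 7 with a fold in both tissues whose seed and seedling folds lay apart by more than counting error, at 1.06 on the log2 scale (0.06 to 2.05), with 13 fragments in NT seeds and with transcript lengths of 971 bases in the seed rows and 1144 in the seedling rows. The lowest, gene_22796, went from 0.83 to 2.22 FPKM in seeds (log2 fold 1.42, 0.43 to 2.51) and from 1.16 to 3.64 FPKM in seedlings (1.65, 0.89 to 2.44). In the seed rows the closest protein named was from Nicotiana sylvestris for gene_2752 and gene_22796 and from Nicotiana tomentosiformis for gene_22791, gene_22797 and gene_2751, so genes named for either relative were listed. Summed over the 5 identifiers, which can share reads, PHYA stood at 19.3 FPKM (NT) and 39.8 FPKM (DS10:A9) in seeds and at 41.1 FPKM (NT) and 82.1 FPKM (35S:A9) in seedlings. The share of that sum held by gene_22791 was between 29.4 and 32.7% in the 4 libraries, and that of gene_22797 between 25.2 and 29.9%. Where identifiers are pieces of 1 locus, such a sum counts the level of that locus more than once.

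Phytochrome B was represented by different identifiers in the A9 and in the A4a tables. In the A9up table gene_78577 had 1.97 FPKM (NT) and 3.77 FPKM (DS10:A9) in seeds, and 5.20 FPKM (NT) and 10.36 FPKM (35S:A9) in seedlings. As with PHYA, the lowest value was that of NT seeds and the highest that of 35S:A9 seedlings. The log2 fold was 0.94 in seeds (0.54 to 1.36, from 76 and 150 fragments) and 0.99 in seedlings (0.78 to 1.22, from 256 and 511 fragments), and seeds minus seedlings was -0.06 (-0.51 to 0.40). Its listed transcript length was 3509 bases in the seed rows and 3776 bases in the seedling rows.

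The second PHYB gene, gene_78589, was not in the A9up table and appeared in the A4a lower table, with 1.91 FPKM in the NT seeds of the DS10:A4a comparison and 0.93 FPKM in DS10:A4a seeds. Its log2 fold was -1.04 (-1.84 to -0.26), which rested on 44 and 22 fragments. The 4 PHYB identifiers beyond the 6 were described as phytochrome B-like, B1 or B2 and were lower still. In the A9up table gene_14555 went from 0.16 to 0.57 FPKM in seeds (6 and 23 fragments) and from 0.51 to 1.18 FPKM in seedlings (30 and 70 fragments). For gene_41991 the table gives 0 and 0.25 FPKM in seeds (0 and 3 fragments) and 0.11 and 1.01 FPKM in seedlings (2 and 15 fragments). In the A4a tables gene_53410 and gene_45935 were each listed on 1 fragment in 1 library and 0 in the other, and no fold is given for them.

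Among the members, PHYC gene_32028 differed from those of PHYA and PHYB in being close to absent from the seed libraries. By fragments alone, this did not set PHYC apart from every PHYB identifier. PHYB gene_41991, gene_53410 and gene_45935, which are not members, also rested on 3 fragments or fewer in each seed library that lists them. Their transcripts are shorter, at 1092, 350 and 447 bases, so few fragments leave room for higher levels. Where above 0 in seeds they were at 0.25, 0.21 and 0.14 FPKM, with upper limits of 0.74, 1.18 and 0.90 FPKM. The only member listed in all 3 comparisons, gene_32028 has a transcript of 5307 bases. DS10:A9 seeds had 0.02 FPKM (1 fragment) against 0 in their NT library, and DS10:A4a seeds had 0.03 FPKM (about 3 fragments) against a value written as 0.01 in theirs. In the first NT library 0 fragments allow up to 0.051 FPKM. In the second, 1 fragment of this long transcript would be 0.012 FPKM and be written the same way as 0, so that 0 and 1 fragment cannot be told apart. No seed fold is given. Its entry in the A9up table and in the A4a higher table rests, for seeds, on these few fragments. In seedlings it was well above that limit, with 1.91 FPKM in the NT and 3.19 FPKM in the 35S:A9 library (133 and 222 fragments), a log2 fold of 0.74 (0.42 to 1.06). The other PHYC identifier, gene_8186, described as phytochrome C and as tomato phytochrome F, was in the A4a higher table with 0.13 FPKM without and 0.32 FPKM with the A4a transgene (log2 fold 1.30, 0.19 to 2.52, from 10 and 25 fragments).

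Phytochrome E was listed in the A4a comparison alone. The level of gene_25647 was 1.79 FPKM in NT seeds and 1.03 FPKM in DS10:A4a seeds, from 109 and 64 fragments. Its log2 fold was -0.80 (-1.26 to -0.34). PHYE and the PHYB gene_78589 stood at like levels in the NT seed library (difference 0.09 on the log2 scale, -0.46 to 0.60) and again in the DS10:A4a library, where gene_25647 was 0.15 above gene_78589 (-0.57 to 0.92). No PHYA identifier and none of gene_78577, gene_14555 and gene_41991 was in an A4a table.

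**Figure D2:**
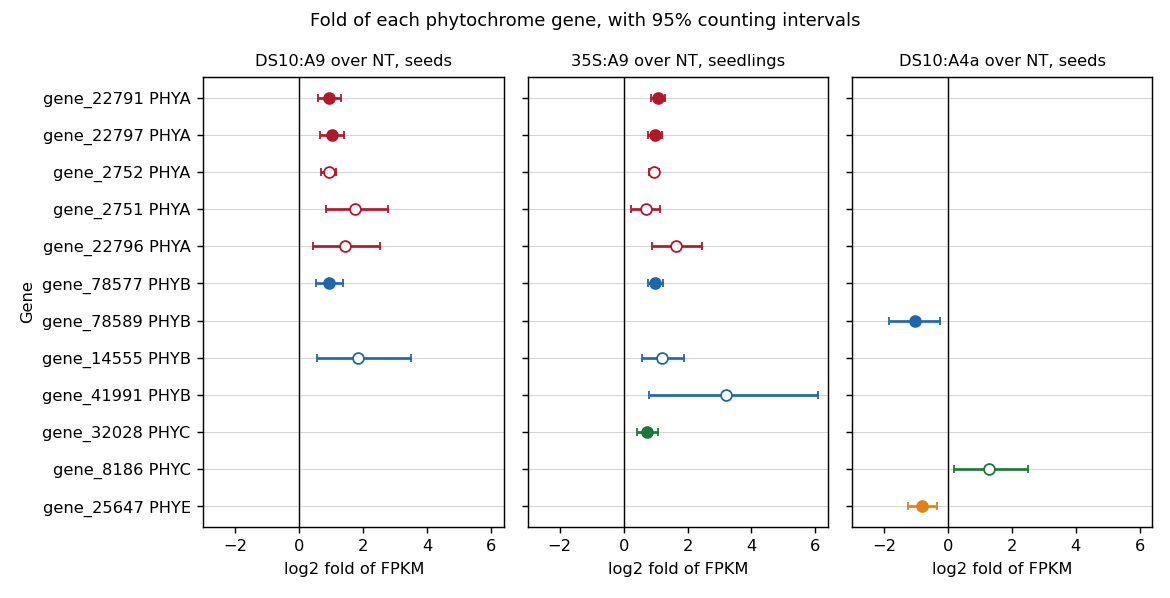
Log2 fold of FPKM, transgenic over NT, of the 12 phytochrome genes with a fold, in 3 comparisons, with 95% counting intervals; filled points are the 6 genes and open points the other identifiers, and a missing point means no fold in that comparison. In the A9 panels the points with narrow intervals lie near a log2 fold of 1, and in the DS10:A4a panel gene_78589 and gene_25647 lie below 0 and gene_8186 above.

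Read against all genes of the tables, the folds of the phytochromes lay close to the medians of the A9up genes. Of the 4 members in the A9up table, 3 had an interval above 0 in seeds and 4 in seedlings, where 20.8% of all 4754 A9up genes did in seeds and 43.2% in seedlings. Both members of the A4a lower table had an interval below 0, as did 21.8% of the 16011 genes of that table, and the 1 member of the A4a higher table had no fold, where 19.3% of 13618 genes had an interval above 0. These counts follow from the listing and from depth and say nothing particular of the phytochromes: among genes with a mean level of at least 1 FPKM the same shares were 59.0% in A9 seeds, 79.4% in A9 seedlings and 59.8% in the A4a lower table. At that level the median log2 fold was 0.98 over 6 phytochrome genes and 0.95 over 1071 A9up genes in seeds, and 0.99 over 7 phytochrome genes and 1.13 over 1716 A9up genes in seedlings. In the A4a lower table the 2 phytochrome genes at that level had log2 folds of -1.04 and -0.80, beside a median of -0.70 over 4092 genes. The levels of the PHYA and PHYB members were high within the A9up table: gene_22791 lay above 97.7% of the genes of the table in NT seeds and above 97.1% in NT seedlings, and gene_78577 above 91.9% and 93.6%. The PHYA identifiers gene_2751 (87.7% and 92.7%) and gene_22796 (82.5% and 77.3%) lay lower than this PHYB gene. The PHYC member gene_32028 lay above 84.5% in NT seedlings but, at 0 FPKM, above none in NT seeds.

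**Figure D3:**
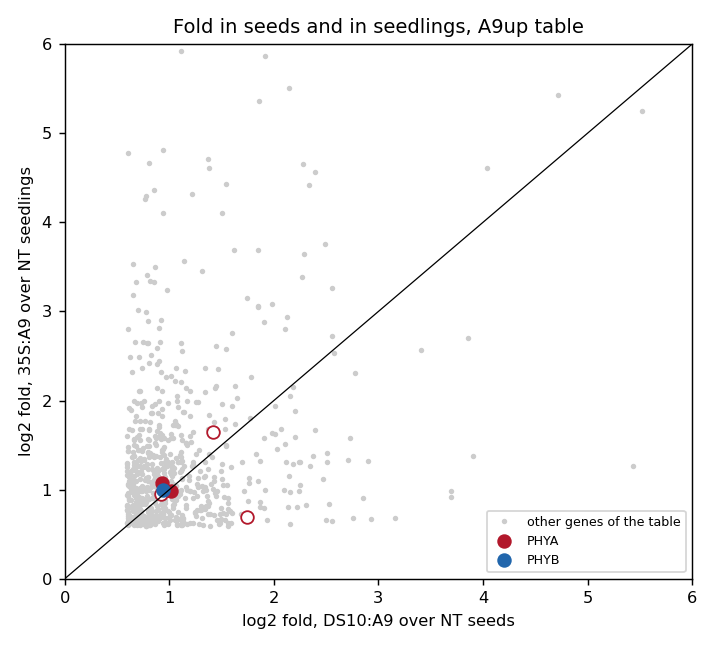
Log2 fold in seeds (DS10:A9 over NT, x axis) against that in seedlings (35S:A9 over NT, y axis) for the A9up genes with a mean level of at least 1 FPKM in both comparisons (707 genes, 10 of them outside the axes), with PHYA in red and PHYB in blue, filled for the 6 genes. The members gene_22791, gene_22797 and gene_78577 lie close to the line of equal fold, near 1 on both axes, and the open point at 1.75 in seeds and 0.69 in seedlings is gene_2751.

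Light-grown seedlings held more transcript of the phytochrome members of the A9up table than imbibed seeds, a comparison on which the listing of a gene does not directly depend. Identifiers listed in the A4a tables alone, PHYE gene_25647 and PHYB gene_78589 among them, have no seedling value here. NT seedlings over NT seeds, the log2 difference in level was 0.94 for gene_22791 (0.60 to 1.28), 1.31 for gene_22797 (0.96 to 1.66) and 1.40 for gene_78577 (1.03 to 1.79). PHYC (gene_32028), at 0 in NT seeds, was at least 37.4-fold higher in NT seedlings, taking 3 fragments as the limit in the seed library. The 3 members with a log2 difference thus had an interval above 0. By the bound of its interval, gene_32028 (0 and 133 fragments) was above 0 as well. For all 4753 A9up genes, counting those at 0 in 1 library by the bound of their interval, 23.1% had one above 0 and 9.24% one below 0. Among the A9up genes with a mean of at least 1 FPKM over both NT libraries the share above 0 was 53.5%, and over the 422 genes with at least 1 FPKM in all 4 libraries the median difference was 0.08, with quartiles at -0.75 and 1.14. Among the other identifiers gene_2752 differed by 0.89 (0.66 to 1.12) and gene_2751 by 1.83 (0.96 to 2.81), while the difference of gene_22796, 0.48, was within counting error (-0.63 to 1.64). Tissue, age and light differ together between these libraries, which were also normalized apart, so they cannot be told apart here, nor can more cells that express a gene be told from more RNA per cell in these whole-tissue pools.

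**Figure D4:**
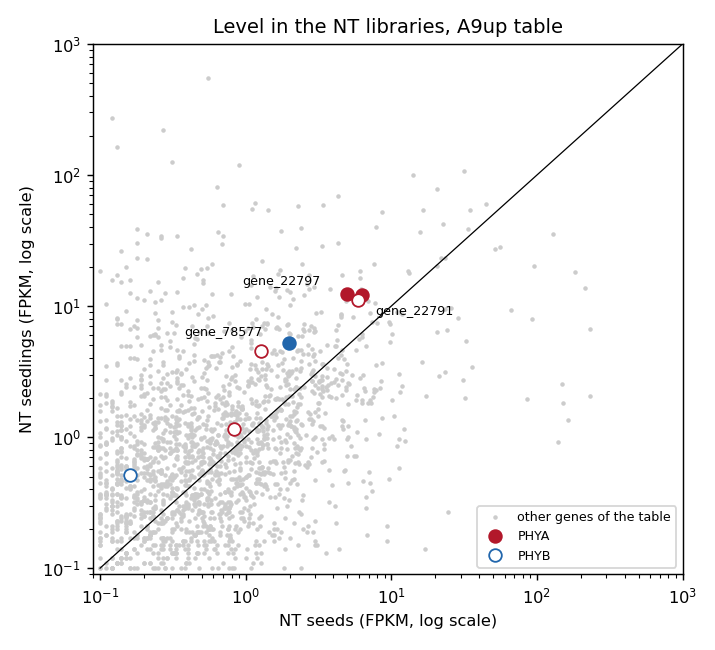
Level in NT seeds (x axis) against NT seedlings (y axis), both in FPKM on log scales, for the 1927 A9up genes with at least 0.1 FPKM in both, with PHYA in red and PHYB in blue, filled for the 6 genes. All phytochrome genes drawn lie above the line of equal level, and PHYC is not drawn because it was at 0 in NT seeds.

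The same order held between the transgenic libraries. In 35S:A9 seedlings over DS10:A9 seeds the log2 difference was 1.08 for gene_22791 (0.84 to 1.32), 1.28 for gene_22797 (1.04 to 1.52) and 1.46 for gene_78577 (1.19 to 1.73). For gene_32028 the ratio was 159.5, with a log2 interval of 5.10 to 12.90 that is wide because the seed library held 1 fragment. The background was 32.5% of A9up genes with an interval above 0 and 10.5% below 0, and 50.4% above 0 among genes with a mean of at least 1 FPKM. Between DS10:A9 seeds and NT seedlings the PHYA identifiers did not move one way. The log2 difference, seeds over seedlings, was -0.01 for gene_22791 (-0.28 to 0.27), 0.03 for gene_2752 (-0.16 to 0.21) and -0.08 for gene_2751 (-0.66 to 0.49), all within counting error. It was -0.29 for gene_22797 (-0.57 to -0.02) and 0.94 for the low gene_22796 (0.10 to 1.82). In this pair PHYB gene_78577 differed by -0.46 (-0.76 to -0.16) and was lower in the DS10:A9 seeds, and PHYC was at 0.02 against 1.91 FPKM.

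Among the 4 members of the A9up table the order of levels per length was PHYA, then PHYB, then PHYC in each library. The order did not hold for every other identifier: PHYA gene_22796 was below PHYB gene_78577 in all 4 libraries, and PHYB gene_14555 was below PHYC gene_32028 in both seedling libraries. The 2 PHYA members did not differ from each other beyond counting error in any of the 4 libraries (log2 differences of 0.02 to 0.35, all intervals including 0), and gene_22797 was above gene_22791 only in NT seedlings. The next step down was clear in each library. PHYA gene_22797 was 2.52 times the level of PHYB gene_78577 in NT seeds and 2.66 times in DS10:A9 seeds, and gene_22791 was 2.33 times that level in NT seedlings. PHYB gene_78577 was 2.72 times the level of PHYC gene_32028 in NT seedlings and 3.25 times in 35S:A9 seedlings. The ratio of gene_22791 to gene_78577 was 3.20 (NT) and 3.19 (DS10:A9) in seeds, and 2.33 (NT) and 2.46 (35S:A9) in seedlings. PHYB exceeded gene_22791 in its seedling over seed difference by 0.46 on the log2 scale in the NT libraries (-0.03 to 0.96) and by 0.37 in the transgenic ones (0.02 to 0.73). Set against gene_2752 the excess was 0.51 (0.08 to 0.94) and 0.53 (0.22 to 0.84), but against gene_22797 it was 0.09 (-0.41 to 0.59) and 0.18 (-0.17 to 0.53). For gene_2751 and gene_22796 no such interval was computed. Their seedling over seed differences were 1.83 and 0.48 in the NT libraries, beside 1.40 for gene_78577. In the transgenic libraries they were 0.77 and 0.71, beside 1.46. The shift from PHYA to PHYB in seedlings thus depended, also in direction, on which PHYA identifier was taken.

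The genes whose pattern was most like that of a phytochrome included other phytochromes. Likeness was the root mean square difference of log2(FPKM + 0.1), centred for each gene, over the 4 libraries of the A9up table, and 263 described genes with at least 1 FPKM in all 4 were searched. Nearest to gene_22791 were gene_82064 (an endoplasmic reticulum calcium-transporting ATPase, difference 0.05), PHYA gene_2752 (0.07) and gene_23994 (a plasmodesmata callose-binding protein, 0.08). Nearest to gene_78577 were PHYA gene_22797 (0.07), gene_11120 (a late blight resistance protein homolog, 0.07) and gene_66372 (GIGANTEA-like, 0.09), GIGANTEA being a protein of the circadian clock and of flowering time. The difference between gene_78577 and gene_22791 was 0.20. With 4 points a gene, of which the listing fixes that each transgenic value is above its NT value, such likeness is a description of these libraries.

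Genes of light signalling were found by their descriptions in 13 lists. The lists of the phytochrome A nuclear import factors FHY1/FHL and of the phytochrome-associated phosphatases matched 0 genes in these tables. Over all lists 15 genes were in the A9up table, 20 in the A4a higher and 24 in the A4a lower table. An interval above 0 was found for 7 of the 15 in seeds and 11 of the 15 in seedlings, for 2 of the 20 in the A4a higher table, and an interval below 0 for 11 of the 24 in the A4a lower table. Over all genes these shares were 20.8% and 43.2% for the A9up table in seeds and seedlings, 19.3% for the A4a higher and 21.8% for the A4a lower table. Among genes with a mean of at least 1 FPKM they were 59.0%, 79.4%, 64.4% and 59.8%.

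Among the PIFs, basic helix-loop-helix factors that bind active phytochrome, the UNE10-like gene_34638 had 2.99 and 5.06 FPKM in NT and DS10:A9 seeds and 6.46 and 11.94 FPKM in NT and 35S:A9 seedlings. Its log2 folds were 0.76 (0.11 to 1.38) and 0.89 (0.51 to 1.28). The A4a lower table held 5 genes of the list, led by another UNE10-like gene, gene_27453, at 20.4 and 13.5 FPKM (log2 fold -0.59, -0.78 to -0.40). The PIF7-like gene_3237 was at 0.87 and 0.38 FPKM (-1.20, -1.88 to -0.59). The 3 PIF-related genes of the A4a higher table had intervals that include 0 or no fold. The 4 genes for phytochrome kinase substrates, which act between phytochromes, phototropins and growth responses, were all in the A4a higher table at 0.80 FPKM or less, and none had an interval above 0.

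Of the ubiquitin ligase that phytochromes hold back, COP1 gene_80985 went from 2.20 to 3.34 FPKM in A9 seeds and from 3.30 to 5.04 FPKM in A9 seedlings, with log2 folds of 0.60 (0.23 to 0.99) and 0.61 (0.33 to 0.90). A second COP1-like gene, gene_15927, was the highest gene of all the lists in the A4a comparison, at 39.3 FPKM in NT and 25.5 FPKM in DS10:A4a seeds (-0.62, -0.75 to -0.50). SPA proteins, the partners of COP1, were listed 4 times in the A4a lower table, and 3 of these had an interval below 0 (21.8% of all genes of the table did, and 59.8% of those with a mean of at least 1 FPKM). The highest, SPA1-related 4 (gene_50661), was at 9.62 and 6.0 FPKM (-0.68, -0.88 to -0.48). In the A9up table gene_17, SPA1-related 2-like, had log2 folds of 0.98 in seeds (0.21 to 1.75) and 0.62 in seedlings (-0.09 to 1.42).

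HY5, the basic leucine zipper factor that COP1 marks for breakdown, had genes in both the A9up and the A4a lower table. The level of gene_78854 was 5.80 FPKM in NT and 9.29 FPKM in DS10:A9 seeds, and 5.55 FPKM in NT and 2.76 FPKM in DS10:A4a seeds. Its log2 fold was thus 0.68 in the first comparison (0.19 to 1.16) and -1.01 in the second (-1.56 to -0.48), each against its own NT library. In seedlings, at 1.10 and 1.80 FPKM, its log2 fold of 0.71 was within counting error (-0.31 to 1.71). The second HY5 gene in both tables, gene_57696, had log2 folds of 1.55 (0.26 to 3.02) in A9 seeds, 2.58 (0.42 to 5.79) in A9 seedlings and -0.94 in DS10:A4a seeds, the last within counting error (-2.22 to 0.22). The HY5 gene_57694 was listed in the A4a lower table alone, at 6.49 and 2.60 FPKM (-1.32, -1.90 to -0.78).

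The FAR1 and FHY3 related genes, named for factors that in Arabidopsis sustain the nuclear import of phytochrome A, numbered 5 in the A9up, 3 in the A4a higher and 8 in the A4a lower table. Of the 5 A9up genes, 0 had an interval above 0 in seeds and 4 in seedlings, beside 20.8% and 43.2% of all A9up genes. The FAR1-related sequence 3 gene_35716 was at 4.33 and 7.57 FPKM in seeds and 2.48 and 3.78 FPKM in seedlings. Both log2 folds, 0.81 (-0.08 to 1.71) and 0.61 (-0.46 to 1.75), were within counting error. In the A4a lower table it was at 9.42 and 5.63 FPKM (-0.74, -1.44 to -0.095). The FAR1-related sequence 6-like gene_43762 was at 3.20 and 6.51 FPKM in seedlings (log2 fold 1.02, 0.23 to 1.88). An interval below 0 was found for 2 of the 8 A4a lower genes (21.8% of all genes of the table), and above 0 for 0 of the 3 A4a higher genes (19.3%). LAF1-like gene_58015, named for an activator in phytochrome A signalling, had 1.43 FPKM in NT seeds and 3.21 FPKM with DS10:A9 (1.17, 0.19 to 2.23) and rested on 1 and 4 fragments in seedlings. For the synthesis of the chromophore, 1 gene was listed, gene_79046, described as a probable inactive heme oxygenase 2, at 2.20 FPKM in NT seeds and 1.22 FPKM with DS10:A4a (-0.85, -1.50 to -0.20). The list of DET1, DDB1 and the COP9 signalosome, which regulates ubiquitin ligases, had 4 genes in the A4a higher table. An interval above 0 was found for 1 of them, beside 19.3% of all genes of the table and 64.4% of those with a mean of at least 1 FPKM. It was the COP9 subunit 2-like gene_4312, at 2.21 and 4.54 FPKM (1.04, 0.35 to 1.73). The DDB1- and CUL4-associated factor gene_38188, at 2.63 and 4.15 FPKM, was within counting error (0.66, -0.005 to 1.30).

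The phototropin and cryptochrome lists were also set beside the phytochromes. Phototropin 2 (gene_28646) was at 0.34 and 0.57 FPKM in NT and DS10:A9 seeds, below both PHYA members, and at 34.0 and 67.8 FPKM in NT and 35S:A9 seedlings, above both. Its seedling log2 fold of 1.00 (0.91 to 1.08) was of the same size as that of PHYA. The seed log2 fold of 0.75 was within counting error (-0.27 to 1.80, from 14 and 24 fragments). Of the 2 cryptochrome identifiers in the A9up table, both of the DASH type, gene_55270 went from 9.48 to 21.4 FPKM in seedlings (1.17, 0.94 to 1.41) and from 1.38 to 2.30 FPKM in seeds (0.74, 0.03 to 1.51). The 3 identifiers described as cryptochrome 1 or 1-like were in the A4a higher table, at 0.20 FPKM or less. Of these, 1 had an interval above 0 (gene_72430, from 2 and 10 fragments), beside 19.3% of all genes of the table.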

How the data were processed

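The deposited FPKM values were computed by the authors from paired-end reads of 6 libraries, each a pool of 4 RNA samples. The submitters' processing notes name HISAT 0.1.6, StringTie 1.04, Bowtie2 2.2.5 and RSEM 1.2.12. Per the labels, each RNA sample was sequenced 2 times, and whether the values pool both is not given in the sources used here. A level of 0 is written as 0.01 in the tables and was read as 0, although in long genes (89 of 4755 such values in the NT seeds of the A4a comparison) 0.01 can also stand for 1 fragment. The deposited tables also hold the authors' log2 folds and Poisson p-values, which were not used, and 2 tables that repeat rows of the other 3 were left out. Of the expression columns, 0 in the tables used were left aside. RSEM can split reads between copies, and the transcript length of a gene can differ between comparisons.

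For each gene the log2 ratio of transgenic to NT FPKM was taken anew (pandas 2.3.3 and NumPy 2.4.6 under Python 3.11.15, SciPy 1.17.1 for intervals, matplotlib 3.10.9 for figures). For short, low genes FPKM times length (less 40 or 60 bases) times depth is a whole number of fragments, and the lowest depth with this property was taken: 86.6 to 96.3% of such values came out whole within 0.1 fragment. Fragments then gave exact binomial (Clopper-Pearson) 95% intervals, and differences between 2 folds have normal intervals of the log counts. The steps were tested on simulated data. No fold is given against a library at 0 or where both libraries held 3 fragments or fewer. Which of the 2 NT seed libraries belongs to which comparison was taken from the tables. Of the A9up identifiers 4753 have both A9 comparisons.

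The genes named are the 6 members, every other gene described as a phytochrome apoprotein, the leading genes by mean FPKM of each light-signalling list, up to 3 a table, and the 3 genes nearest in pattern to gene_22791 and gene_78577. The members and lists were chosen with earlier results of these data known, and the words that define 2 lists were narrowed after descriptions that matched by chance were seen.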

Additional observations from a re-analysis of the deposited data

How the results depend on the processing

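A pseudocount of 0.1 or 1 FPKM and, for PHYA and PHYB, sums over all identifiers of a phytochrome moved none of the 28 recomputed folds and level differences of the members outside their counting intervals, and the full transcript length moved each of 18 interval bounds by less than 0.1. The intervals are wide, and within them a pseudocount of 1 FPKM brought the folds of low genes nearer to 0. In DS10:A4a seeds the log2 fold of gene_25647 went from -0.80 to -0.46 and that of gene_78589 from -1.04 to -0.59. In seedlings that of gene_32028 went from 0.74 to 0.53. For gene_25647 and gene_32028 this passed the listing thresholds of -0.5 and 0.6. The counts of light-signalling genes did depend on the threshold. With at least 1 FPKM in a library of the pair, the 15 A9up genes became 9 in seeds and the A4a higher and lower genes became 5 of 20 and 11 of 24. At log2 thresholds of 1 and -1 the counts were 4 of 15 in A9 seeds, 6 of 15 in A9 seedlings, 13 of 20 in the A4a higher and 12 of 24 in the A4a lower table. The share of all genes at these settings was not computed, so the counts show only how the lists depend on the setting. Of the 20 A4a higher genes, 2 had an interval above 0. Exchanging the 2 NT seed libraries gave no value, since gene_32028, the only member listed with both, was written as 0.01 in each. No paired analysis was possible because the labels carry no replicate numbers and each condition is 1 library, apart from the 2 NT seed libraries of different comparisons. No library could be left out, since each comparison holds 1 library on each side. Depth limits the PHYC values in seeds and the folds of gene_78589, gene_14555, gene_41991 and gene_22796, which rest on few fragments, and variation between lines was not measured.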
